A study of Homo sapiens with 9 samples.

Results

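Expression of 10 genes for ligands of immune receptors was followed in A375, an established human melanoma cell line, under TP-472, a compound that blocks the bromodomains of BRD9 and BRD7. The genes were a named list of NKG2D ligands (MICA, MICB, ULBP1, ULBP2 and ULBP3) and of ligands or enzymes on the tumor cell surface that restrain immune cells (CD274, CD276, PVR, CD47 and NT5E), and all 10 were found among the 26475 gene symbols of the count table. Of these 10 genes, 9 passed the filter on low counts, as did 16417 symbols in all, and ULBP1 did not. Cells were kept for 24 h with TP-472, at 5 µM in one group and at 10 µM in another, or with its solvent DMSO. RNA of each group was sequenced in 3 libraries called biological replicates. All 9 libraries came from this one line, and no source names the culture behind each of them, so p-values measure the spread between these libraries. No immune cells were part of the cultures as described, and protein on the cell surface was not measured here.

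NKG2D is an activating receptor of natural killer cells and of subsets of T cells. Its ligands resemble MHC class I molecules, are scarce on most healthy cells and are induced by cell stress, DNA damage or transformation, and proteases can release them from the tumor cell as soluble decoys. Checkpoint ligands act in the opposite sense: PD-L1, encoded by CD274, engages PD-1 on T cells, and CD47 engages SIRPα on macrophages as a signal against phagocytosis. PVR is bound by the inhibitory receptor TIGIT and by the activating receptor CD226, and CD73, encoded by NT5E, makes immunosuppressive adenosine from AMP outside the cell.

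The regions upstream of the 3 genes called higher at 10 µM (MICA, ULBP2 and CD274) and of MICB, the close relative of MICA, are shown because these genes carry the results below. They are RefSeq sequences of build GRCh38.p14 on the + strand, each starting 250 bases upstream of the RefSeq transcript start and ending before the first base that GENCODE 29 places in an exon. Capitals mark matches to the GC box (GGGCGG), the CCAAT box (CCAAT), the heat shock element core (GAANNTTC) and a STAT site (TTCNNNGAA), searched on both strands. No marked matches overlap. The stretches of MICA and MICB lie inside the annotated genes, between exons of longer transcripts.
MICA, chr6:31403345-31403578: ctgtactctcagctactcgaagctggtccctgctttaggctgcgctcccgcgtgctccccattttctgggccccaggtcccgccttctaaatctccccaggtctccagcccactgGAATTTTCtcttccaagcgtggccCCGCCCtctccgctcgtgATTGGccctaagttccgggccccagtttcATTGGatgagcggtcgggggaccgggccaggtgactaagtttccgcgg
MICB, chr6:31497895-31498085: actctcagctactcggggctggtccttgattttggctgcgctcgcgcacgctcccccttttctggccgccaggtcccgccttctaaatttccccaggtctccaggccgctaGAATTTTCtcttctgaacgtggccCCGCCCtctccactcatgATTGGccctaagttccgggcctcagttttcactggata
ULBP2, chr6:149941764-149941999: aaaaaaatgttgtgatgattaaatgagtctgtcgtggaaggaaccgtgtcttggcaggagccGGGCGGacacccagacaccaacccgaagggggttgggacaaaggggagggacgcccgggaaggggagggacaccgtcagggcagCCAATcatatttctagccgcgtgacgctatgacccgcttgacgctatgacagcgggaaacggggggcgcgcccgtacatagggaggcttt
CD274, chr9:5450292-5450502: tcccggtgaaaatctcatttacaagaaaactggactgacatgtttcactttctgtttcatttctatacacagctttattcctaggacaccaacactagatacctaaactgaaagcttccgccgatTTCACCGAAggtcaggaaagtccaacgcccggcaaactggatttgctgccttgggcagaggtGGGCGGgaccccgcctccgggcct

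Upstream sequences were found for 10 of 10 genes, and the motifs were counted over all 250 bases. MICA and MICB were 84.0% identical there. Both held the heat shock element core as GAATTTTC, starting at position -135 in MICA and -139 in MICB, counted from the transcript start with -1 as the last base before it. The core occurred in 2 of the 10 genes and in 5.85% of all 27305 upstream regions of this length. The STAT site occurred in 1 of the 10, at position -125 of CD274, and in 6.78% of all regions. GC boxes occurred in 9 of the 10 genes, PVR being the exception, and in 42.3% of all regions, and CCAAT boxes in 4 of the 10 and in 33.0%. The letters of AP-1 (TGANTCA), of CRE (TGACGTCA) and of the p53 decamer were in none of the 10 windows, against 6.60%, 1.77% and 5.53% of all regions. These are matches of letters, and binding was not measured.

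MICA and MICB also share coding sequence, which bears on how their reads were counted. The longest stretch common to both, 71 bases within 1 coding exon of MICA on the + strand (GENCODE 29 transcripts, GRCh38), is shown because reads inside it cannot be assigned to either gene.
MICA and MICB, chr6:31412079-31412149: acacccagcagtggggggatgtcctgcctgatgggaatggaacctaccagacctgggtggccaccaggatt
The coding sequences of MICA and MICB were 79.3% identical. ULBP2 was 97.2% identical in coding sequence to RAET1L, with a common stretch of 168 bases, and shared 121 bases with RAET1G, both being further genes of the RAET1 family of NKG2D ligands. Of the 50-base stretches of the MICA coding sequence, 3.48% occurred in that of MICB. Of those of ULBP2, 45.1% occurred in RAET1L and 21.9% in RAET1G. Transcript sequence outside the coding parts was not compared. Counts of MICA, MICB and ULBP2 were not whole numbers in any of the 9 libraries (to within 0.005 counts), whereas the sum of MICA and MICB and the sum of ULBP2, RAET1G and RAET1L were whole in 9 of 9 (to within 0.015 counts). The counts of ULBP3, CD274, CD276, PVR, CD47 and NT5E were whole in all 9 libraries. The split of reads between MICA and MICB, and between ULBP2 and its relatives, is therefore an estimate, and the summed values are given beside the single genes.

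The genes lie on 5 chromosomes, as annotated by GENCODE 29 on GRCh38. The NKG2D ligands are all on chromosome 6, with MICA (chr6:31399784-31415315) and MICB (chr6:31494881-31511124) within the MHC and ULBP2 (chr6:149942000-149949235), ULBP1 (chr6:149964007-149973710) and ULBP3 (chr6:150063150-150069095, - strand) in the RAET1 cluster. NT5E (chr6:85449584-85495791) is on the same chromosome. CD274 is at chr9:5450503-5470566, CD276 at chr15:73683966-73714518, PVR at chr19:44643798-44663583 and CD47 at chr3:108043094-108091862 on the - strand. Of the exonic bases of MICA, 2.60% are also annotated to HCP5 on the same strand, and no other of the 10 genes overlapped an exon of another gene.

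The libraries held 42483091 to 51298130 counts. Ribosomal RNA made up 8.79% to 10.9% of the counts of the DMSO libraries, and 10.6% to 16.6% and 8.20% to 19.9% of those at the lower and the higher dose. The 10 µM replicate 1 library stood apart: the length and the GC content of transcripts went with 33.1% of the variance of its deviation across genes, against 22.2% and 23.3% in the other 10 µM libraries and at most 4.04% in the remaining 6. Of the melanocyte lineage markers, SOX10 (363 to 426 CPM, counts scaled to a library size of 1000000), MITF (23.3 to 35.9) and MIA (35.0 to 65.9) were present in every library, TYR was at 0 in all 9 and DCT at or near 0. In all, 3 of the 8 melanocyte markers were under 1 CPM in every library. The leukocyte markers CD3E and GNLY were at 0 in all 9 libraries and PTPRC reached at most 0.537 CPM. The summed level of the 9 leukocyte markers, mostly LYZ, ranged over 7.26 to 7.85 CPM with DMSO, and over 6.41 to 7.40 and 5.81 to 7.67 CPM with the rising doses. Of 5 fibroblast markers, PDGFRB, PDGFRA and COL3A1 were called lower at 10 µM, beside 10.5% of all genes tested. LUM (log2 fold change -0.18 to -0.03 over 20 alternative analyses) and DCN (-0.39 to 0.50 over 19) were not called there. At 5 µM PDGFRB was called lower, and LUM was called higher in 4 of 20 alternative analyses only. The summed level of all 5 fibroblast markers was 28.4 to 30.4, 18.1 to 20.7 and 9.98 to 14.6 CPM in the 3 groups. Of the melanocyte and epithelial marker lists, 0 of 6 and 0 of 3 genes tested were called at 10 µM (edgeR), beside 19.1% of all genes tested. At an unadjusted p under 0.05 there were 0 in these 2 lists. Without 10 µM replicate 1, MIA (log2 fold change -0.46, SE 0.08, adjusted p = 0.000212) and SOX10 (-0.13, SE 0.04, adjusted p = 0.0149) were lower at 10 µM by adjusted p. Neither was called then, and the other melanocyte and epithelial markers tested did not pass by adjusted p. In bulk RNA, fewer cells of one kind and less RNA per cell cannot be told apart, and the part of any of these differences in the results was not tested.

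The ligand genes spanned a wide range of expression. Per kilobase of annotated exons, the order in DMSO was NT5E (43.5 ± 1.40 CPM per kb, SD, n = 3), CD276 (34.9 ± 0.802), PVR (21.1 ± 0.530), CD47 (14.2 ± 0.429), ULBP2 (5.71 ± 0.248), MICB (5.03 ± 0.286), MICA (3.70 ± 0.0948), CD274 (1.19 ± 0.0192), ULBP3 (0.979 ± 0.136) and ULBP1 (0.0254). The ranges of neighbours in this order did not overlap. NT5E, CD276, PVR and CD47 thus stood above all 5 NKG2D ligands in the DMSO libraries. At 5 µM the order was the same, with overlapping ranges between ULBP2 and MICB, MICB and MICA, and CD274 and ULBP3. At 10 µM MICA (8.97 ± 2.39 CPM per kb) was between ULBP2 (9.20 ± 1.99) and MICB (7.16 ± 0.598), with overlapping ranges between ULBP2 and MICA, between MICA and MICB, and between NT5E (30.2 ± 3.45) and CD276 (27.7 ± 2.13).

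**Figure D1:**
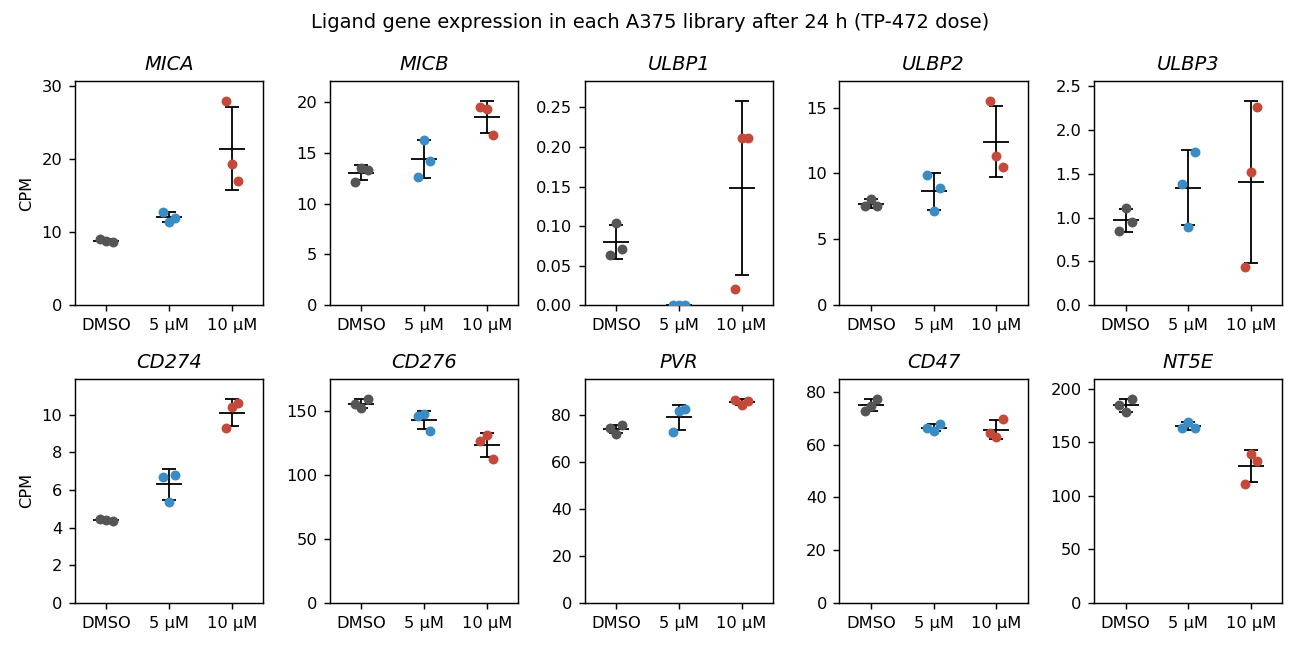
CPM of each of the 10 ligand genes (y axis, linear, from 0, a scale of its own in each panel) in the 3 libraries of each group (x axis); points are libraries, the wide tick is the mean and the bar ± 1 SD. MICA rose from 8.65 to 9.08 CPM in DMSO to 17.0 to 27.8 CPM at 10 µM, and NT5E was at 178 to 190 CPM in DMSO and 111 to 139 CPM at 10 µM.

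Whether TP-472 changed these genes was tested for each dose against DMSO. A gene was called where it differed by 1.5-fold or more with an adjusted p under 0.05, by the quasi-likelihood test of edgeR with Benjamini-Hochberg adjustment over all genes tested. At 10 µM, 3 of the 9 genes tested were called, all higher: MICA, ULBP2 and CD274. This set of 3 in 9 stands beside 19.1% of all genes tested, of which 8.57% were called higher and 10.5% lower. By adjusted p alone, 6 of the 9 passed, adding MICB above DMSO and CD276 and NT5E below it, beside 34.3% of all genes. The 3 libraries at 10 µM were all above those in DMSO for 5 genes (MICA, MICB, ULBP2, CD274 and PVR), all below for 3 (CD276, CD47 and NT5E), and overlapped for ULBP3. Over all genes tested, 49.3% did not overlap, 23.4% above and 26.0% below. The median log2 fold change was 0.51 over the 9 genes and 0.01 over all genes tested.

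At 5 µM, 0 of the 9 genes were called (edgeR), beside 4.87% of all genes tested, 2.14% higher and 2.72% lower. By adjusted p alone 1 of the 9, CD274, passed, beside 10.2% of all genes, and DESeq2 and limma-voom also called 0. At an unadjusted p under 0.05 there were 3, CD274, MICA and CD47. The 5 µM libraries were all above DMSO for 2 genes (MICA and CD274) and all below for 3 (CD276, CD47 and NT5E), and overlapped DMSO for 4, beside 48.7% of all genes without overlap, 23.7% above and 25.0% below. The median log2 fold change over the 9 genes was 0.14, against 0.01 over all. The comparisons of 5 µM and of 10 µM with DMSO share the DMSO libraries.

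**Figure D2:**
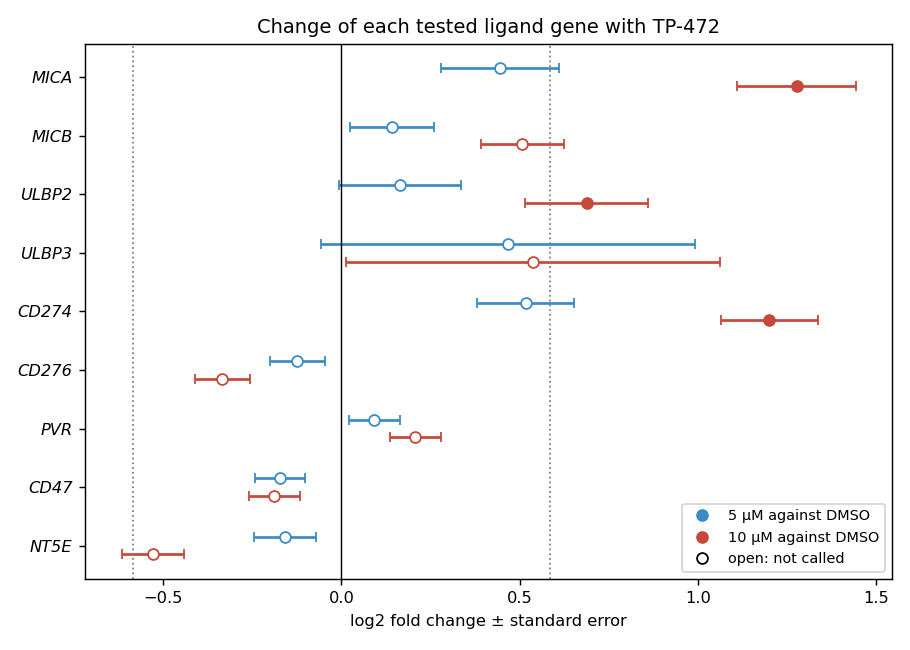
Log2 fold change against DMSO (x axis) of the 9 ligand genes tested (y axis) at 5 µM and 10 µM; bars are ± 1 standard error, filled points are called, and dotted lines mark a fold change of 1.5. At 10 µM, MICA (1.28), CD274 (1.20) and ULBP2 (0.69) lie beyond the dotted line as called genes, and NT5E (-0.53) is the lowest.

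MICA, a ligand of NKG2D attached to the cell by a transmembrane segment, was expressed at 9.08, 8.75 and 8.65 CPM in the DMSO libraries, at 12.7, 11.4 and 12.0 CPM at 5 µM and at 27.8, 19.3 and 17.0 CPM at 10 µM. The 3 groups did not overlap, and 10 µM replicate 1 was the highest library. At 10 µM it rose 2.42-fold (log2 fold change 1.28, SE 0.17, adjusted p = 0.000316). At 5 µM the log2 difference was 0.45 (SE 0.17, adjusted p = 0.127). In the joint fit without 10 µM replicate 1, the 5 µM value was 0.44 (SE 0.09, adjusted p = 0.00151), under the fold minimum. Without 10 µM replicate 1, the log2 fold change at 10 µM was 1.04 (SE 0.10, adjusted p = 4.28e-07), and MICA was called under all 22 alternatives tried, at 0.87 to 1.42, the lowest being its sum with MICB.

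MICB, the second MHC-linked ligand of the receptor, was expressed at 12.2, 13.6 and 13.4 CPM in DMSO, at 12.6, 16.3 and 14.2 CPM at 5 µM and at 19.5, 19.3 and 16.7 CPM at 10 µM. The 10 µM libraries were above all others, and those at 5 µM overlapped DMSO. MICB was 1.42-fold higher at 10 µM (log2 fold change 0.51, SE 0.12, adjusted p = 0.00811), under the minimum of 1.5-fold. Summed over MICA and MICB, whose total does not depend on the split of shared reads, expression was 21.3, 22.3 and 22.0 CPM in DMSO, 25.3, 27.7 and 26.2 CPM at 5 µM and 47.4, 38.7 and 33.7 CPM at 10 µM. The groups did not overlap in the sum either. The sum rose 1.83-fold at 10 µM (log2 fold change 0.87, SE 0.12, adjusted p = 0.000402) and did not pass the test at 5 µM (0.27, SE 0.12, adjusted p = 0.188). The share of the sum assigned to MICA was 40.4% ± 1.99 (SD, n = 3) in DMSO, 45.7% ± 4.60 at 5 µM and 53.1% ± 4.97 at 10 µM, between 39.2% and 58.8% in single libraries.

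**Figure D3:**
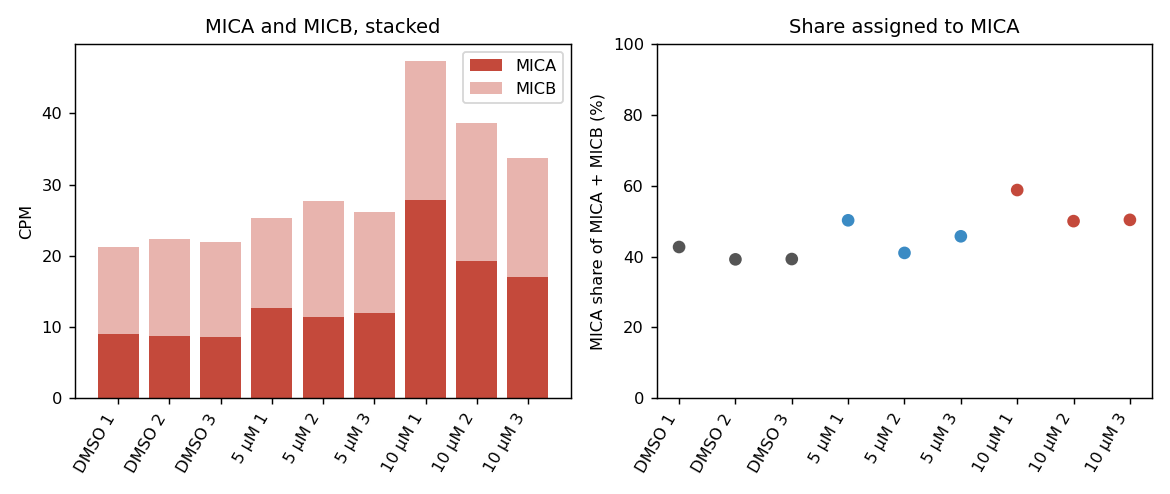
Left, CPM of MICA and MICB (y axis, stacked bars from 0) in each of the 9 libraries (x axis); right, the share of their summed counts assigned to MICA, in percent. The summed bars reach 33.7 to 47.4 CPM at 10 µM against 21.3 to 22.3 CPM in DMSO, and the share of MICA is 50.0% to 58.8% at 10 µM against 39.2% to 42.7% in DMSO.

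ULBP2, a ligand held in the membrane by a lipid anchor, was expressed at 7.53, 8.09 and 7.50 CPM in DMSO, at 9.86, 7.13 and 8.93 CPM at 5 µM and at 15.5, 11.3 and 10.5 CPM at 10 µM. The 10 µM libraries were above all others, with replicate 1 the highest, and 5 µM replicate 2 was below all DMSO libraries. At 10 µM it rose 1.61-fold (log2 fold change 0.69, SE 0.17, adjusted p = 0.0118), and at 5 µM the log2 difference was 0.16 (SE 0.17, adjusted p = 0.644). The call at 10 µM ended without 10 µM replicate 1 (0.50, SE 0.14, adjusted p = 0.00716) and with the trend of length and GC content removed (0.45, SE 0.13, adjusted p = 0.0169), in both through the fold minimum. This trend was taken over all groups together, so its removal also takes out group differences that follow length or GC content. Summed with RAET1G and RAET1L, the value at 10 µM was 0.72 (SE 0.17, adjusted p = 0.0077).

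ULBP3 and ULBP1 were the least expressed of the NKG2D ligands. ULBP3, also lipid-anchored, was expressed at 0.845, 1.11 and 0.946 CPM in DMSO, at 1.38, 0.891 and 1.74 CPM at 5 µM and at 0.434, 1.52 and 2.26 CPM at 10 µM. The groups overlapped, and 10 µM replicate 1 was the lowest of all 9 libraries. The log2 difference at 10 µM was 0.54 (SE 0.52, adjusted p = 0.469), and without replicate 1 it was 0.96 (SE 0.37, adjusted p = 0.0442), which passed the test, whereas without replicate 3 it was 0.0155 (SE 0.53, adjusted p = 0.986). ULBP1 had 3.18, 5.07 and 3.00 counts in the DMSO libraries, 0 in all 3 at 5 µM and 1.00, 11.0 and 10.3 at 10 µM, and was not tested. A count of 0 allows up to 3 counts, or 0.0581 to 0.0657 CPM in the 5 µM libraries, a limit that covers counting error only. The DMSO and 10 µM libraries overlapped, and no fold change is given.

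Of 3 further NKG2D ligand genes of the RAET1 family, RAET1G rose at 10 µM. RAET1G was expressed at 0.289, 0.256 and 0.294 CPM in DMSO, at 0.445, 0.344 and 0.350 CPM at 5 µM and at 0.872, 1.59 and 0.740 CPM at 10 µM, with no overlap between the groups. Its log2 fold change at 10 µM was 1.97 (SE 0.47, adjusted p = 0.0099), from counts between 12.4 and 82.6, and the call was lost in 1 of 19 alternatives, without DMSO replicate 2. RAET1E (0.897 to 2.25 CPM over all libraries) had a log2 difference of -0.10 (SE 0.36, adjusted p = 0.862), and 41.1% of its exonic bases are shared with another gene on the same strand. RAET1L had 3.68, 10.3 and 10.3 counts in DMSO, 6.63, 0 and 3.81 at 5 µM and 0 in all 3 libraries at 10 µM, and was not tested. RAET1G shares reads with ULBP2 and RAET1L, so its level and its call rest on the estimated split of these reads. ULBP2 made up 87.7% to 94.7% of the sum of the 3 genes at 10 µM, so the sum cannot decide RAET1G.

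CD274, the gene of PD-L1, was expressed at 4.47, 4.38 and 4.33 CPM in DMSO, at 6.70, 5.36 and 6.79 CPM at 5 µM and at 9.28, 10.4 and 10.6 CPM at 10 µM. The 3 groups did not overlap, and the DMSO libraries lay close together. At 10 µM it rose 2.30-fold (log2 fold change 1.20, SE 0.14, adjusted p = 0.000126), and the value was 1.16 to 1.26 and called under all 22 alternatives. At 5 µM it was 1.43-fold higher (0.52, SE 0.14, adjusted p = 0.0391), under the fold minimum, and without 5 µM replicate 2 it was called (0.62, SE 0.13, adjusted p = 0.0355). Its counts, 183 to 541 in a library, were whole numbers throughout, to within 0.005 counts.

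NT5E, the gene of CD73, was expressed at 185, 178 and 190 CPM in DMSO, at 163, 169 and 163 CPM at 5 µM and at 111, 139 and 133 CPM at 10 µM. The groups did not overlap and were in order of dose. NT5E was 1.44-fold lower at 10 µM (log2 fold change -0.53, SE 0.09, adjusted p = 0.00132), short of the fold minimum, with a log2 difference of -0.16 at 5 µM (SE 0.09, adjusted p = 0.312). Without 10 µM replicate 2 it was called lower at 10 µM (-0.60, SE 0.09, adjusted p = 0.00144). Without 10 µM replicate 1, the lowest library, the value at 10 µM was -0.44 (SE 0.04, adjusted p = 4.95e-07) and not called. In that fit the value at 5 µM was -0.16 (SE 0.04, adjusted p = 0.00411), also under the fold minimum.

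CD276, the gene of the B7 family ligand B7-H3, was expressed at 155, 152 and 159 CPM in DMSO, at 146, 147 and 134 CPM at 5 µM and at 126, 131 and 113 CPM at 10 µM. All treated libraries were below those in DMSO. It was 1.26-fold lower at 10 µM (log2 fold change -0.33, SE 0.08, adjusted p = 0.00818), which passed the p but not the fold minimum, and the value was -0.18 (SE 0.06, adjusted p = 0.032) with the trend of length and GC content removed. PVR was expressed at 72.1 to 75.8 CPM with DMSO, 72.9 to 82.7 CPM at 5 µM and 84.2 to 86.6 CPM at 10 µM, with a log2 difference of 0.21 at 10 µM (SE 0.07, adjusted p = 0.0503). CD47 was expressed at 72.8 to 77.3 CPM with DMSO, 65.3 to 67.9 CPM at 5 µM and 62.9 to 69.8 CPM at 10 µM, with log2 differences of -0.17 at 5 µM (SE 0.07, adjusted p = 0.166) and -0.19 at 10 µM (SE 0.07, adjusted p = 0.0644). Neither PVR nor CD47 passed the test at either dose in the fit of all libraries, although the 10 µM libraries did not overlap DMSO. Without 10 µM replicate 1, CD47 passed by adjusted p at 5 µM (-0.17, adjusted p = 0.0137) and at 10 µM (-0.18, adjusted p = 0.0155). PVR then passed at 10 µM (0.20, adjusted p = 0.0096). All these values were under the fold minimum. With that trend removed, the value at 10 µM was 0.02 for CD47 and 0.29 for PVR (SE 0.06, adjusted p = 0.00416), still under the fold minimum.

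The 2 doses were then compared with each other. MICA and CD274 were called higher at 10 µM than at 5 µM and no ligand gene was called lower, beside 4.01% of all genes called in this comparison, 1.42% higher and 2.59% lower. MICA was 1.78-fold higher at 10 µM (log2 fold change 0.83, SE 0.16, adjusted p = 0.0143) and CD274 1.61-fold (0.68, SE 0.13, adjusted p = 0.0136). Both calls were lost with only the libraries of these 2 groups in the fit (MICA 0.84, adjusted p = 0.0657; CD274 0.70, adjusted p = 0.0772) and without 5 µM replicate 2 (MICA 0.79, adjusted p = 0.0713; CD274 0.58, adjusted p = 0.0588). The MICA call was also lost without 5 µM replicate 1 (0.87, adjusted p = 0.0519) or 3 (0.82, adjusted p = 0.0643). By adjusted p alone 3 of the 9 passed, beside 8.40% of all genes, the third being NT5E, which was lower at 10 µM (-0.37, SE 0.09, adjusted p = 0.0302). The 10 µM libraries were all above those at 5 µM for 5 genes (MICA, MICB, ULBP2, CD274 and PVR), all below for 2 (CD276 and NT5E) and overlapped for 2, beside 28.3% of all genes without overlap, 12.1% above and 16.2% below.

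The genes whose expression across the 9 libraries lay nearest to MICA and CD274 were listed, with likeness taken as the root mean square difference of centred log2 CPM among 13677 genes of at least 1 CPM on average. For MICA, the gene of this list with the largest change at 10 µM, they were DUSP1 (0.08 on the log2 scale), AVPI1 (0.09) and SQSTM1 (0.09). DUSP1 encodes a phosphatase of MAP kinases and SQSTM1 the autophagy receptor p62, and their mean expression went from 12.3 and 655 CPM in DMSO to 28.6 and 1523 CPM at 10 µM. For CD274 they were GEM (0.07), CHST2 (0.10) and DNAJB9 (0.10), encoding a small GTP-binding protein, a sulfotransferase and a chaperone partner of the endoplasmic reticulum. Mean GEM expression went from 12.0 to 27.8 CPM. These genes were picked by this likeness, so it is a description of the same libraries.

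Of 6 genes of enzymes known to release NKG2D ligands from the cell, 3 fell at 10 µM and 0 rose, beside 10.5% and 8.57% of all genes tested, and 1 fell at 5 µM. In all 6 the 10 µM libraries were below those in DMSO, beside 26.0% of all genes. The median log2 fold change of the 6 was -0.73, against 0.01 over all genes tested. MMP9, a gelatinase, was at 43.0 to 43.7 CPM with DMSO, 9.34 to 10.6 CPM at 5 µM and 5.21 to 8.51 CPM at 10 µM (log2 fold change at 10 µM -2.62, SE 0.16, adjusted p = 2.31e-06), and it also fell at 5 µM (-2.10, SE 0.15, adjusted p = 4.68e-05). MMP14, a membrane-bound metalloproteinase, went from 243 to 244 CPM to 127 to 135 CPM at 10 µM (-0.89, SE 0.06, adjusted p = 6.27e-06). ADAM9 went from 193 to 199 CPM to 77.0 to 126 CPM (-0.89, SE 0.15, adjusted p = 0.00134). The other members of this list, ADAM10, ADAM17 and the disulfide isomerase PDIA6, had values of -0.39, -0.57 and -0.29 and were not called. The ADAM17 libraries at 10 µM spread from 27.4 to 66.3 CPM, with replicate 1 the lowest. Without that library the values of ADAM9, ADAM10 and ADAM17 were -0.71, -0.20 and -0.27, with ADAM9 still called. Those of MMP9, MMP14 and PDIA6 were then -2.78, -0.87 and -0.33. Without 10 µM replicate 3 ADAM17 was called at -0.81.

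Of 24 other checkpoint ligand genes, 19 were tested, and 3 rose and 1 fell at 10 µM, a share near the 19.1% called over all genes. NECTIN4, listed under its older symbol PVRL4 and encoding a relative of PVR that TIGIT also binds, was at 1.56 to 2.25 CPM with DMSO, 8.37 to 11.0 CPM at 5 µM and 16.8 to 20.8 CPM at 10 µM. Its log2 fold change was 2.34 at 5 µM (SE 0.18, adjusted p = 6.48e-05) and 3.31 at 10 µM (SE 0.19, adjusted p = 1.53e-06). CD24, whose product engages Siglec-10 on macrophages, went from 1.65 to 1.83 CPM to 8.03 to 11.3 CPM at 10 µM (2.42, SE 0.18, adjusted p = 7.94e-06) and was called at 5 µM as well (1.82, SE 0.18, adjusted p = 0.000247). TNFRSF14, the gene of the BTLA ligand HVEM, rose at 10 µM (0.72, SE 0.15, adjusted p = 0.00429). ICOSLG, whose product costimulates T cells through ICOS, fell at 10 µM (-0.69, SE 0.24, adjusted p = 0.0493), a call kept in 4 of 20 alternatives. Of the direct relatives of the 10 genes, NECTIN2, listed as PVRL2, was 1.37-fold lower at 10 µM (-0.46, SE 0.09, adjusted p = 0.00348), under the fold minimum. PDCD1LG2, the gene of the other PD-1 ligand, was at 0.757 to 0.885 CPM in DMSO and 1.41 to 2.27 CPM at 10 µM (1.11, SE 0.41, adjusted p = 0.0618). NCR3LG1, also on this list and named here after its values were seen, was not called at either dose. Its value at 10 µM ranged from 0.12 to 1.28 over 20 alternatives. It was called higher in 1 of them, without 10 µM replicate 1 (1.28, SE 0.16, adjusted p = 8.47e-06). At 5 µM it was called in 2 of 20.

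Of 10 genes of ligands for T cell costimulation and adhesion, 7 were tested and 1 rose and 1 fell at 10 µM, beside 8.57% of all genes called higher and 10.5% lower. TNFSF9, the ligand of CD137, stood at 28.9 to 31.4 CPM with DMSO, 45.3 to 48.1 CPM at 5 µM and 55.7 to 73.4 CPM at 10 µM (log2 fold change at 10 µM 1.05, SE 0.11, adjusted p = 6.91e-05). ICAM1, an adhesion ligand of leukocyte integrins, went from 155 to 160 CPM to 78.3 to 87.2 CPM and 80.3 to 82.0 CPM (-0.97, SE 0.07, adjusted p = 6.58e-06). Both were also called at 5 µM, at log2 fold changes of 0.65 and -0.91.

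Of 13 genes known to act on PD-L1 level, among them those of interferon signaling, 0 rose and 2 fell at 10 µM, beside 8.57% and 10.5% of all genes. Their median log2 fold change was 0.05. IFNGR2, a chain of the interferon-γ receptor, went from 67.0 to 70.6 CPM to 35.5 to 40.7 CPM (log2 fold change -0.83, SE 0.08, adjusted p = 4.69e-05). CMTM4, encoding a membrane protein that stabilizes PD-L1, had a value of -0.82 (SE 0.21, adjusted p = 0.0136), and without 10 µM replicate 1 it was -0.57 and no longer called. CMTM6, its relative with the same role, had a value of -0.18 (SE 0.08, adjusted p = 0.123). JAK2, a kinase of that signaling named here after its values were seen, had a value of 0.43 (SE 0.20, adjusted p = 0.119) and was called higher without the same library (0.66, SE 0.10, adjusted p = 3.4e-05).

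Of 5 partners of CD47, 2 fell and 0 rose at 10 µM, beside 10.5% and 8.57% of all genes. LRP1, the receptor through which calreticulin promotes engulfment, went from 404 to 424 CPM to 115, 241 and 261 CPM (a change of -50.1%, adjusted p = 0.00914), with 10 µM replicate 1 the lowest. Without that library its log2 fold change was -0.72 (SE 0.04, adjusted p = 1.15e-09), still called. SIRPA, the receptor of CD47, fell (-0.77, SE 0.11, adjusted p = 0.000634). QPCTL, the enzyme that modifies CD47 for binding to SIRPα, and THBS1, the secreted ligand thrombospondin-1, had values of -0.20 (adjusted p = 0.199) and -0.05 (adjusted p = 0.876). Without 10 µM replicate 1, THBS1 turned to 0.18 (SE 0.03, adjusted p = 0.000116), under the fold minimum.

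Of 11 adenosine pathway genes around NT5E, 10 were tested and 1 rose and 2 fell at 10 µM, beside 8.57% and 10.5% of all genes. ADORA1, an adenosine receptor, went from 20.9 to 21.4 CPM to 7.52 to 10.8 CPM (log2 fold change -1.30, SE 0.14, adjusted p = 9.99e-05). SLC29A1, a nucleoside transporter, fell (-0.73, SE 0.15, adjusted p = 0.00512), and ADK, the kinase that returns adenosine to AMP, rose (0.67, SE 0.11, adjusted p = 0.00103). The ADK call was lost without 10 µM replicate 1 (0.58, adjusted p = 1.9e-05) and with the trend of length and GC content removed, through the fold minimum. ENTPD1, the gene of CD39, which supplies AMP to CD73, was 1.26-fold higher at 10 µM (0.33, SE 0.11, adjusted p = 0.0435), under that minimum.

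Of 11 genes of lymphocyte receptors, a list that does not hold SIRPA, 10 were under 1 CPM in every library, among them KLRK1, which encodes NKG2D, and PDCD1, which encodes PD-1 and was at 0 in all 9. CD96, a receptor of PVR known from T and natural killer cells, was at 221 to 227 CPM with DMSO, 181 to 195 CPM at 5 µM and 112 to 136 CPM at 10 µM. It fell at 10 µM (log2 fold change -0.84, SE 0.08, adjusted p = 4.86e-05), as 1 of 3 genes of the list tested, beside 10.5% of all genes called lower.

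**Figure D4:**
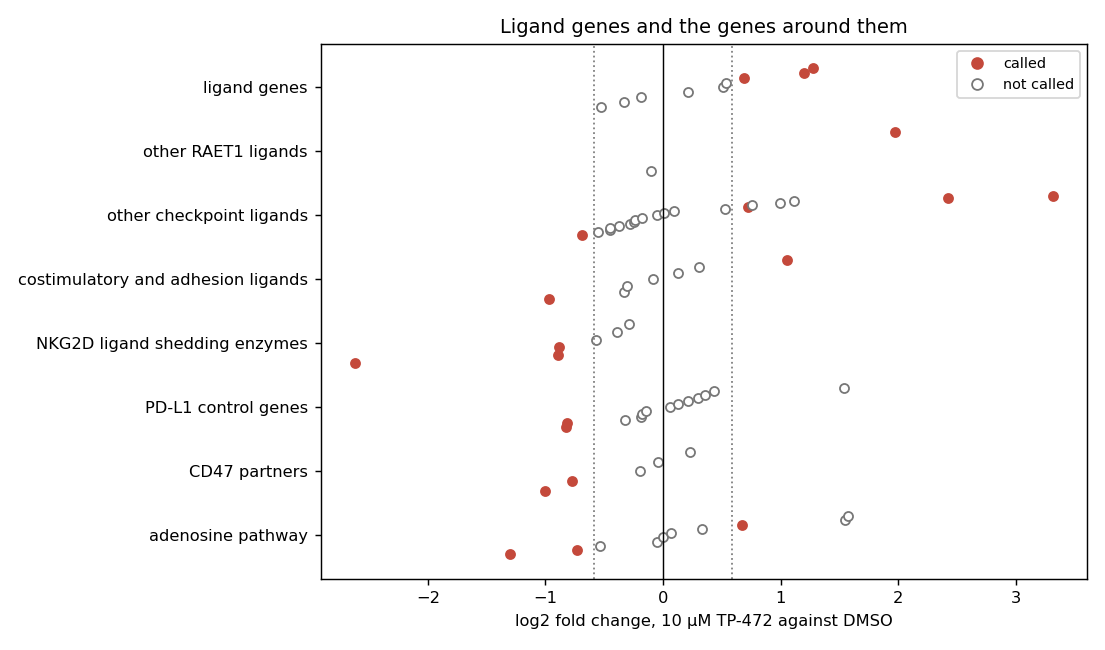
Log2 fold change at 10 µM against DMSO (x axis) of the 9 ligand genes tested and of the tested genes in 7 related lists (rows); each point is a gene, filled where called, its height within a row has no meaning, and dotted lines mark a fold change of 1.5. In the row of shedding enzymes all 6 points lie below 0, with MMP9 at -2.62, and NECTIN4 (3.31) is the highest point of the other checkpoint ligands.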

How the data were processed

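RNA of 9 A375 libraries was analysed, 3 per group, grouped by the GEO labels. The authors deposited expected counts per gene symbol, made from the reads with RSEM 1.2.15 and Bowtie2 2.1.0 on hg38 per the labels' processing notes. The sources used here do not give the annotation or the use of strand in counting, and the labels describe both poly(A) capture and removal of ribosomal RNA. RSEM divides reads that match several genes by estimation, and 10.6% to 13.8% of the values of a library were not whole. Expected counts were rounded, filtered with filterByExpr, scaled with TMM (factors 0.957 to 1.029) and tested by a joint quasi-likelihood fit of the 3 groups (edgeR 4.0.16, R 4.3.3) and Benjamini-Hochberg adjustment over 16417 genes. An adjusted p below always comes from this fit or a named alternative, and SEs were taken from the log2 fold changes and their F values. Per-kilobase levels used exonic lengths of GENCODE 29. DESeq2 1.42.0, limma 3.58.1 and other normalizations, filters and sample sets were alternatives, with summed shared reads added after the data were seen. The trend of length and GC content was fitted to the deviation of each library from the mean of all 9 libraries. Its removal therefore also takes out any difference between groups that follows length or GC content. The scripts were tested on simulated data. Named were every ligand gene, up to 4 called genes with the largest change at 10 µM in each related list, direct partners of the ligand genes, and the 3 genes of nearest pattern to MICA and CD274. The ligand genes and all lists were chosen with earlier results of these data known. The labels do not say that libraries came from separate cultures. Figures were drawn with matplotlib 3.10.9.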

Additional observations from a re-analysis of the deposited data

How the results depend on the processing

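Of 594 values of the 9 ligand genes under 22 alternatives and 3 comparisons, 564 kept their direction and their side of the call, 9 lost a call, 10 gained one and 11 changed sign. The alternative by adjusted p alone reuses the main fit, so it could neither change a sign nor lose a call. This also holds where a gene is said to be called under all 22. With shared reads summed, MICA and MICB both carry the value of their sum, so the calls that MICB gained there are calls of that sum. The sign changes were all of genes without a call. For CD47 at 10 µM against 5 µM the log2 difference became 0.014 with upper-quartile factors, 0.0105 without 10 µM replicate 2 (range over libraries left out -0.061 to 0.0105), 0.16 with the trend of length and GC content removed and 0.15 with that and the replicate block. Against DMSO at 10 µM it became 0.0247 with the trend removed and 0.0141 with the block as well. For ULBP3 at 10 µM against 5 µM it became -0.14 with limma-voom, -0.0765 with the replicate block, -0.19 with the trend removed and the block, and ranged from -0.45 to 0.50 over libraries left out, negative without 5 µM replicate 2 (-0.16) or 10 µM replicate 3 (-0.45).

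The number of ligand genes called at 10 µM against DMSO was 6 by adjusted p alone. It was 2 (MICA and CD274) with the trend of length and GC content removed, with or without the block. With shared reads summed it was 4, where the 1 summed feature of MICA and MICB counts under both names. With a library left out it was 3 to 4, the 3 without 10 µM replicate 1 holding ULBP3 in place of ULBP2. At 10 µM against 5 µM it was 0 with only the 2 groups compared, 3 by adjusted p alone and 0 to 2 with a library left out, 0 without 5 µM replicate 2 and 1 without 5 µM replicate 1 or 3. At 5 µM against DMSO it was 1 by adjusted p alone and 0 to 1 with a library left out. Over all genes, 799 were called at 5 µM, against 1320 with only those 2 groups, 480 to 527 without a DMSO library, 1241 without 10 µM replicate 1 and 1676 by adjusted p alone. At 10 µM 3137 were called, against 5634 by adjusted p alone. Between the doses 658 were called, 233 higher and 425 lower, against 266 with only those 2 groups, 379 to 390 without a 5 µM library, 1379 by adjusted p alone, and 312 higher and 362 lower with the trend removed. The causes were not tested. The labels' replicate numbers did not pair the libraries: over 9 same-numbered pairs the correlation of deviations was -0.121 to 0.168, with 1 over 0.1. With the replicate block 0, 3 and 2 ligand genes were called at 5 µM, at 10 µM and between the doses, and 687, 3005 and 556 of all genes. Depth limits ULBP1 and ULBP3, which had at most 11.0 and 111 counts in a library.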
